A study of Mus musculus with 18 samples.

Results

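The immediate early genes described here are Fos, Fosb, Jun, Junb, Egr1, Egr2, Egr3, Ier2, Ier3 and Dusp1, measured in mouse cumulus cells. They were chosen by name: every probe set that carried 1 of these 10 symbols and no other was taken. All 10 genes were found, on 13 of the 34945 probe sets with a single symbol, which stand for 18193 genes in all. Each gene is described by its probe set of highest mean, and the 3 further probe sets, of Jun, Egr2 and Egr3, are given beside it for removal and return and wherever else they were called. All 10 genes were among the 12246 that passed the filter on low values, as did 12 of the 13 probe sets.

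Cumulus cells, the granulosa cells coupled to an oocyte in its follicle, were profiled, and the study set the presence of the oocyte against the presence of estrogen in cultured complexes from female mice. The 18 arrays fall into 6 groups of 3. With estrogen (E2), they are oocyte-free complexes cultured with oocytes (labelled E2 OOX + Oocytes, here E2 cocultures), complexes whose oocyte had been removed (E2 OOX, here E2 oocyte-free) and intact cumulus-oocyte complexes (E2 COC, here E2 intact). The same 3 kinds of culture without estrogen are the cocultures, the oocyte-free complexes (OOX) and the intact complexes (COC). The labels give no strain, age, dose, time or pooling of animals, and the cells are described only as cultured. Oocytes put back in coculture are separate from the cumulus cells, so this group restores oocytes to the culture and not the intact complex.

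Immediate early genes are transcribed within minutes of a stimulus from factors already present in the cell, with no new protein needed, and their messages are short-lived. Growth factors acting through the RAS and MAP kinase cascade induce many of them through serum response factor and its ETS partners, which bind the CArG box, and signals through cyclic AMP induce several through CREB, which binds the CRE. FOS and JUN proteins pair to form AP-1, EGR proteins are zinc finger transcription factors, and DUSP1 is a nuclear phosphatase that inactivates MAP kinases. In granulosa cells, gonadotropins induce Fos and Egr1, and oocyte growth factors of the TGF-beta family shape cumulus cell gene expression.

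Promoter sequences of 7 of the 10 genes were at hand from RefSeq (GRCm38.p6). Egr1, Egr3 and Ier2 are named only. The 250 bases before an annotated start are shown for Egr2 and Dusp1, each with a match in capitals, and for Fos, with none. Egr2 and Dusp1 were higher in complexes without their oocyte, and Fos moved the other way without estrogen. Junb, also higher without the oocyte in both conditions, and Ier3, higher with estrogen alone, had no match either. The 3 stretches are chr10:67537619-67537868 on the plus strand (Egr2), chr17:26508473-26508722 on the minus strand (Dusp1) and chr12:85473640-85473889 on the plus strand (Fos), each read 5′ to 3′ towards the start.
Egr2: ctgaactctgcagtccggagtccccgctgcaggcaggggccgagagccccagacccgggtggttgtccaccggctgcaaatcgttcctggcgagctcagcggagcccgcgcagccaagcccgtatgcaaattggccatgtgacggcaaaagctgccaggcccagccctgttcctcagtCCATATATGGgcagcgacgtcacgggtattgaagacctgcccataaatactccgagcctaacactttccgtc
Dusp1: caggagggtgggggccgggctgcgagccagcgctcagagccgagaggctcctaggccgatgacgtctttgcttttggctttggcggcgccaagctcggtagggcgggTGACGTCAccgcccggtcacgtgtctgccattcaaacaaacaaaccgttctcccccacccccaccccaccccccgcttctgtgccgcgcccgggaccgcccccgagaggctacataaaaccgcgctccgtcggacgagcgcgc
Fos: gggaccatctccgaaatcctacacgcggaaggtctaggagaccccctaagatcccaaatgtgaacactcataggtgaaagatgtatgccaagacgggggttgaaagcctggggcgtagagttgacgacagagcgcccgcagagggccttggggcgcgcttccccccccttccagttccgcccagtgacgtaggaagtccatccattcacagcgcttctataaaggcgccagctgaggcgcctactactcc
The capitals in Egr2 mark a CArG box that begins 72 bases before the start, and those in Dusp1 mark the CRE palindrome TGACGTCA, which begins 143 bases before the start. Both strands were searched from 250 bases before to 50 bases after each start. Of the 7 genes, 1 had a CArG box (Egr2, in 4 of its 5 windows), 1 had the CRE (Dusp1), and none had the AP-1 site TGANTCA or the EGR site GCGTGGGCG. In all 32851 windows of the table, the CArG box stood in 1.63%, the CRE in 1.79%, the AP-1 site in 7.81% and the EGR site in 0.612%. A match is a run of letters and not a shown binding site, and a missing match says only that these letters are not in the window.

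Values are log2 expression after RMA normalization, so a difference of 1 is a 2-fold change, and levels of different probe sets are not comparable. Array medians lay between 5.51 and 5.71. Whether the arrays of a group stand for different animals or cultures is not stated, and p-values therefore cover the spread among these samples alone, which may be technical. For E2 oocyte-free replicate 1, the title conflicts with both its source name and its treatment label. Both of these describe oocyte-free complexes without estrogen, and the title was followed. The array names form 3 series: series 3 holds oocyte-free replicates 1 and 2 and E2 oocyte-free replicate 3, series 2 holds oocyte-free replicate 3 and coculture replicate 2, and the other 13 arrays form series 1. No series holds both oocyte-free and intact arrays without estrogen, so no within-series value exists for that comparison. The median SD of the 10 genes within a group was widest in oocyte-free complexes, at 0.341 with and 0.438 without estrogen, against 0.216 and 0.223 in intact complexes. Over all tested genes it was 0.23 and 0.274 in the same oocyte-free groups, against 0.15 and 0.161 in the intact ones. The granulosa markers Inha and Foxl2 had group means from 12.40 to 13.59 and from 10.48 to 11.63, while most of the 9 granulosa markers tested changed with the oocyte. On its removal, 1 was higher and 5 were lower with estrogen (from -2.41 for Fst, the activin antagonist, to 3.10 for Kitl, the KIT ligand), and 2 were higher and 6 lower without (from -3.31 to 4.59, again Fst and Kitl). In whole cultures, fewer cells of a type and less RNA per cell cannot be told apart.

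**Figure D1:**
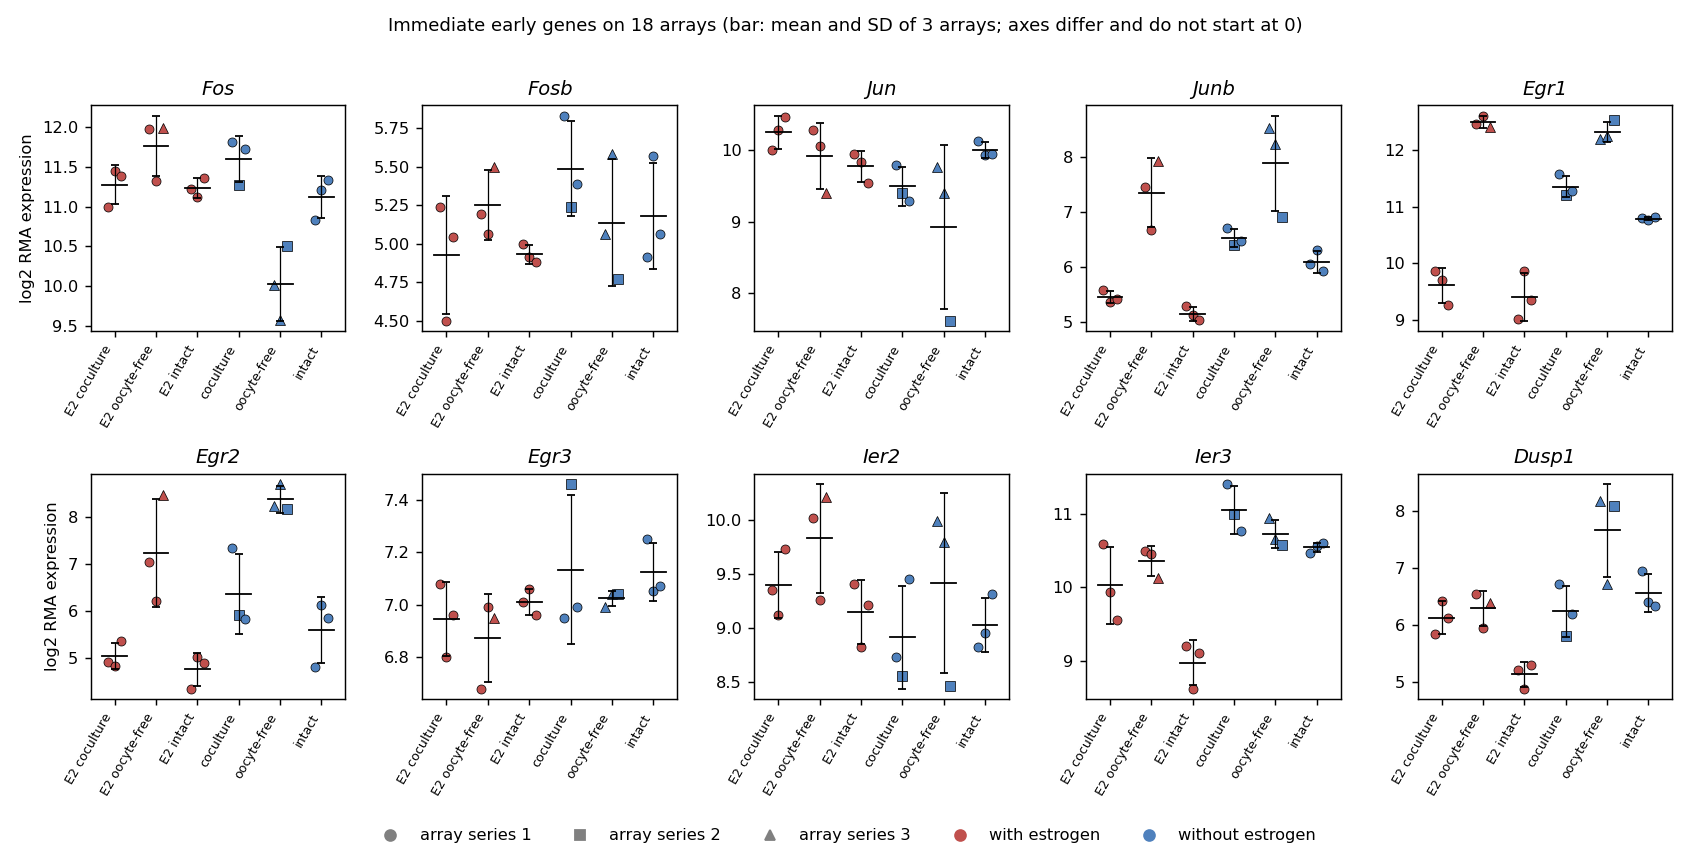
Log2 RMA expression of the 10 genes on each of the 18 arrays (points), with the mean and SD of 3 arrays (bars), by culture type; red points are cultures with estrogen, and the marker shape gives the array series. Egr1, Egr2 and Junb are highest in both oocyte-free groups, while Fos is lowest in oocyte-free complexes without estrogen. Each panel has its own axis, which does not start at 0.

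Removing the oocyte raised the EGR genes Egr1 and Egr2, the AP-1 gene Junb and the phosphatase gene Dusp1, both with and without estrogen. With estrogen, 5 of the 10 genes rose and 0 fell, Ier3 being the fifth. Without estrogen, 4 rose and 2 fell, the falls being Fos and Jun. Among all tested genes, 30.2% were called with estrogen (12.9% higher and 17.3% lower) and 38.7% without (18% higher and 20.7% lower), where a gene is called if limma's adjusted p is under 0.05. Oocyte-free and intact complexes thus differed in a large share of all genes. Only the rises among the 10 genes stand above their share in both conditions. The 10 genes were chosen with earlier results of these data known, so this is a description and not separate support. Without estrogen, the compared arrays belong to different array series, so removal and series cannot be told apart from these groups alone. The median change of the 10 genes was 0.92 with and 0.29 without estrogen, against -0.05 and 0.01 over all tested genes.

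Egr1, the early growth response factor that gonadotropins induce in granulosa cells, separated the groups most cleanly. With estrogen it read 12.47, 12.61 and 12.41 in oocyte-free complexes, against 9.02, 9.86 and 9.34 in intact complexes. All 3 oocyte-free arrays lay far above all 3 intact arrays. The log2 change was 3.09 ± 0.195 (SE from the fit, 3 arrays a group), an 8.51-fold rise with an adjusted p of 3.17e-09. Without estrogen, Egr1 read 12.2, 12.25 and 12.53 in oocyte-free complexes, against 10.8, 10.76 and 10.81 in intact ones, again with no overlap. That change was smaller, at 1.54 ± 0.195, a 2.9-fold rise with an adjusted p of 8.15e-06. The oocyte-free arrays with and without estrogen overlapped, while the intact arrays of the 2 conditions lay apart.

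Egr2, a close relative of Egr1 that binds the same GC-rich element and whose promoter stretch above holds the CArG box, rose in both conditions. With estrogen it read 7.04, 6.21 and 8.48 in oocyte-free complexes, against 4.34, 5.02 and 4.89 in intact ones. The oocyte-free arrays were widely spread but did not overlap the intact arrays. The change was 2.49 ± 0.478, 5.63-fold, with an adjusted p of 0.000649. Without estrogen, Egr2 read 8.25, 8.72 and 8.19 in oocyte-free complexes and 4.8, 6.13 and 5.85 in intact complexes. These groups were likewise separate, with a change of 2.79 ± 0.478, 6.93-fold, and an adjusted p of 0.000175. A further Egr2 probe set gave changes of 0.92 ± 0.255 with and 1.18 ± 0.255 without estrogen, where each probe set was its own row, with adjusted p-values of 0.0125 and 0.00163. Its direction was the same and its size smaller.

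Egr3, the third zinc finger gene of the family, read between 6.68 and 7.46 on all 18 arrays by its main probe set, and its removal changes were -0.14 with and -0.10 without estrogen. Neither was called, and the 95% intervals ran from -0.45 to 0.17 and from -0.41 to 0.21. Its other, dimmer probe set did not pass the filter. That probe set read 4.89, 5.2 and 2.96 in oocyte-free complexes without estrogen and 2.83, 2.65 and 4.32 with estrogen, and between 2.26 and 2.65 on the 12 arrays with oocytes. The 3 readings above 4 are exactly the 3 arrays of series 3, and the part of the series in this was not tested. In a fit with no filter, it changed by 1.95 ± 0.45 on removal without estrogen (adjusted p = 0.00454) and by 0.90 ± 0.45 with estrogen (adjusted p = 0.214). When oocytes were returned, it changed by -0.92 ± 0.45 with estrogen (adjusted p = 0.23) and by -1.81 ± 0.45 without (adjusted p = 0.00926). The probe sets of Egr3 thus disagree, and the mean of both was called without estrogen, at 0.92 on removal (adjusted p = 0.00491) and -0.85 on return (adjusted p = 0.01).

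Junb, which encodes an AP-1 subunit that is a weaker activator than JUN on many targets, read 7.45, 6.68 and 7.92 in E2 oocyte-free complexes, against 5.29, 5.12 and 5.04 in E2 intact ones. Every oocyte-free array was higher. The change was 2.20 ± 0.326, 4.59-fold, with an adjusted p of 5.43e-05. Without estrogen, Junb read 8.52, 8.24 and 6.9 in oocyte-free complexes and 6.05, 6.3 and 5.92 in intact complexes. The groups did not overlap, although oocyte-free replicate 3 lay well below its 2 fellows. The change was 1.80 ± 0.326, 3.47-fold, with an adjusted p of 0.000296. Without the arrays of series 3, which leaves oocyte-free replicate 3 alone in its group, it was 0.81 (adjusted p = 0.0198).

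Fos, the AP-1 subunit that dimerizes with JUN proteins and cannot pair with itself, went the other way without estrogen. It read 10.01, 9.58 and 10.51 in oocyte-free complexes, against 10.83, 11.21 and 11.33 in intact ones. All 3 oocyte-free arrays were lower. The change was -1.09 ± 0.237, 2.13-fold lower, with an adjusted p of 0.00143. This call ended once the array series entered the fit (-0.98, adjusted p = 0.0534), and with the array of conflicting labels placed among the oocyte-free complexes without estrogen (-0.61, adjusted p = 0.239). It ended too without the arrays of series 3 (-0.61, adjusted p = 0.1). With estrogen, Fos read 11.97, 11.32 and 11.99 in oocyte-free complexes and 11.22, 11.12 and 11.36 in intact complexes, and its change of 0.53 ± 0.237 was not called (adjusted p = 0.106), though it was without E2 oocyte-free replicate 2 (0.75, adjusted p = 0.0303). The arrays of these groups overlapped.

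Jun, the central partner of FOS in AP-1, fell without estrogen by 1.07 ± 0.379 on the log2 scale (adjusted p = 0.0323). It read 9.77, 9.4 and 7.62 in oocyte-free complexes, against 10.13, 9.93 and 9.95 in intact ones. The groups did not overlap, but the size came mostly from oocyte-free replicate 3: without it the change was -0.42 (adjusted p = 0.178). The call also ended without intact replicate 1, 2 or 3 (adjusted p = 0.0873, 0.06 and 0.0646), once the array series entered the fit (-0.80, adjusted p = 0.218) and with the array of conflicting labels moved (-0.73, adjusted p = 0.182). Array weights gave -0.57 (adjusted p = 0.0563), a fit of the compared groups alone -1.07 (adjusted p = 0.132), and leaving out series 3 a change of -2.38 (adjusted p = 3.41e-06). The other Jun probe set read 7.42, 7.38 and 6.82 in oocyte-free complexes against 8.13, 7.92 and 7.8 in intact ones, a change of -0.74 ± 0.2 (adjusted p = 0.0079 with each probe set as its own row). With estrogen, the Jun change was 0.14 (95% interval -0.65 to 0.94) and was not called, and that of the other probe set was 0.06 (adjusted p = 0.857). Fosb, a FOS paralog, read between 4.5 and 5.83 on all arrays, with uncalled changes of 0.32 with and -0.04 without estrogen. It lay above the array median on only 3 of the 18 arrays, the least the filter allows, so its flat reading says little.

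Dusp1, which shuts off the MAP kinases that induce immediate early genes, rose in both conditions. With estrogen it read 6.54, 5.96 and 6.39 in oocyte-free complexes, against 5.22, 4.89 and 5.31 in intact ones. The groups were separate, with a change of 1.16 ± 0.321, 2.23-fold, and an adjusted p of 0.0108. Without estrogen, Dusp1 read 8.18, 6.73 and 8.09 in oocyte-free complexes and 6.95, 6.41 and 6.34 in intact complexes. Here the groups overlapped, since oocyte-free replicate 2 lay below intact replicate 1. The change was 1.1 ± 0.321, 2.14-fold, with an adjusted p of 0.0115, and its call ended without oocyte-free replicate 1 (0.84, adjusted p = 0.0643) or replicate 3 (0.89, adjusted p = 0.0542), with array weights (0.72, adjusted p = 0.0583) and in a fit of the compared groups alone (adjusted p = 0.0589). Placing the array of conflicting labels by its source name ended both Dusp1 calls, at 1.03 with estrogen (adjusted p = 0.0824) and 0.82 without (adjusted p = 0.0797).

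Ier3, an early response gene whose product affects cell survival and ERK signalling, rose on removal with estrogen. It read 10.5, 10.45 and 10.12 in E2 oocyte-free complexes, against 9.2, 8.62 and 9.1 in E2 intact ones. No array overlapped, and the change was 1.38 ± 0.232, 2.61-fold, with an adjusted p of 0.000184. Without estrogen its change was 0.18 (95% interval -0.31 to 0.67), not called. Ier2, a small nuclear early response gene, had uncalled changes of 0.69 (95% interval -0.05 to 1.42) with and 0.39 (-0.34 to 1.12) without estrogen. Without oocyte-free replicate 3, which read 8.46 against 9.99 and 9.8 on its fellows, the Ier2 change without estrogen was 0.87 (adjusted p = 0.0287), and with array weights it was 0.75, with the same adjusted p.

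**Figure D2:**
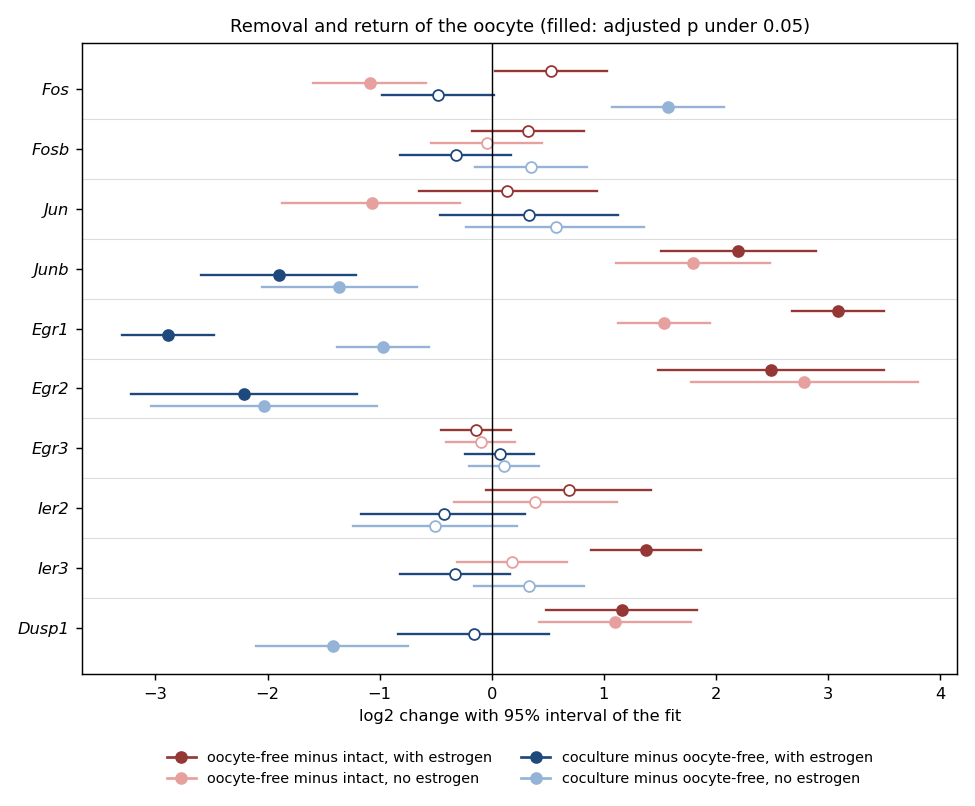
Log2 change of each gene (x axis) on removal of the oocyte (oocyte-free minus intact, reds) and on its return (coculture minus oocyte-free, blues), with and without estrogen; lines are 95% intervals of the limma fit and filled points passed an adjusted p of 0.05. Egr1, Egr2 and Junb lie to the right on removal and to the left on return in both conditions, and Fos lies the other way round without estrogen.

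Returning oocytes to the culture lowered Egr1, Egr2 and Junb with and without estrogen, and lowered Dusp1 and raised Fos without it. With estrogen, 3 of the 10 genes fell and 0 rose, where 24.6% of all tested genes were called (10.4% lower and 14.2% higher). Without estrogen, 4 fell and 1 rose, where 33.2% were called (13.4% lower and 19.8% higher). These comparisons share the oocyte-free arrays with those above, so a high oocyte-free array moves both, in opposite directions, and the values below are given beside the earlier ones and not as separate support. Without estrogen, the cocultures lie in array series 1 and 2 and the oocyte-free arrays in series 2 and 3, so return and series are partly mixed.

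In E2 cocultures, Egr1 read 9.86, 9.7 and 9.26, all far below the 12.41 to 12.61 of the E2 oocyte-free complexes. Its change was -2.89 ± 0.195, 7.41-fold lower, with an adjusted p of 8.28e-09. In cocultures without estrogen it read 11.57, 11.21 and 11.28, below the lowest oocyte-free array at 12.2, with a change of -0.97 ± 0.195, 1.96-fold lower, and an adjusted p of 0.000893. Egr1 thus fell in both conditions with no overlap. Egr2 read 4.92, 4.83 and 5.35 in E2 cocultures, and changed by -2.21 ± 0.478, 4.63-fold lower, with an adjusted p of 0.0023. In cocultures without estrogen Egr2 read 7.34, 5.91 and 5.83, a change of -2.03 ± 0.478, 4.07-fold lower, with an adjusted p of 0.00329. Coculture replicate 1 stood above its fellows but below every oocyte-free array. With the array series as a term this last change was -1.29 and its call ended (adjusted p = 0.102). The further Egr2 probe set fell too, by 1.17 with and 0.73 without estrogen on the log2 scale.

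Junb read 5.58, 5.36 and 5.41 in E2 cocultures, a change of -1.90 ± 0.326, 3.73-fold lower, with an adjusted p of 0.000295. Without estrogen it read 6.71, 6.4 and 6.47 in cocultures, a change of -1.36 ± 0.326, 2.57-fold lower, with an adjusted p of 0.00364. No coculture array reached an oocyte-free one in either condition. Without the arrays of series 3, where oocyte-free replicate 3 was the only array of its group, the change without estrogen was -0.37 (adjusted p = 0.269), and with the array series as a term it was -0.69 (adjusted p = 0.0366). Dusp1 read 6.72, 5.82 and 6.19 in cocultures without estrogen and fell 2.68-fold, by 1.42 ± 0.321 on the log2 scale (adjusted p = 0.00236). With estrogen, Dusp1 read 5.85, 6.43 and 6.12 in cocultures, which overlapped the oocyte-free arrays. Its change of -0.16 (95% interval -0.84 to 0.51) was not called.

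Fos read 11.81, 11.27 and 11.72 in cocultures without estrogen, all above the oocyte-free arrays. The change was 1.57 ± 0.237, 2.96-fold higher, with an adjusted p of 6.47e-05, and it stayed called in all 29 alternative settings, between 1.08 and 1.93. With estrogen, Fos read 10.99, 11.45 and 11.39 in cocultures, and its change of -0.48 was not called (adjusted p = 0.157), though it was without E2 oocyte-free replicate 2 (-0.70, adjusted p = 0.0483). Jun, Fosb, Egr3, Ier2 and Ier3 had no called change on the return of oocytes by their main probe sets in the fit of all arrays. Ier2 was called without oocyte-free replicate 3 when estrogen was absent (-0.98, adjusted p = 0.0169), and Ier3 with array weights when it was present (-0.67, adjusted p = 0.0356). Egr3 by its main probe set changed by 0.11 without estrogen, against the fall of its dimmer probe set given above. The other Jun probe set changed by 0.23 with estrogen (adjusted p = 0.479) and 0.49 without (adjusted p = 0.0736). Without the arrays of series 3, which leaves oocyte-free replicate 3 as the lone oocyte-free array, Jun rose by 1.88 (adjusted p = 3.58e-05). That array holds the lowest Jun reading of the 18, 7.62.

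Between cocultures and intact complexes, limma called 0 of the 10 genes with estrogen, where 0% of all tested genes were called, and 0 without, where 0.00817% were. At an unadjusted p under 0.05, 2 of the 10 genes differed with estrogen, where 2.82% of all tested genes did: Ier3 by 1.05 (95% interval 0.56 to 1.54, adjusted p = 0.47) and Dusp1 by 0.99 (0.32 to 1.67, adjusted p = 1). Without estrogen, 2 did so as well, where 5.98% of all tested genes did: Egr1 by 0.56 (0.15 to 0.97, adjusted p = 0.598) and Ier3 by 0.51 (0.02 to 1.00, adjusted p = 0.787). In E2 cocultures Ier3 read 10.59, 9.93 and 9.56, against 9.2, 8.62 and 9.1 in E2 intact complexes, so the arrays did not overlap although the difference failed the adjustment over all genes. For Egr1, all 3 cocultures without estrogen lay above all 3 intact arrays. Missing the threshold does not show that the groups are alike: for Egr2 the interval ran from -0.73 to 1.29 with and from -0.24 to 1.78 without estrogen.

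Estrogen lowered Egr1, Ier3 and Dusp1 in intact complexes. These 3 of the 10 genes fell and 0 rose, where 5.78% of all tested genes were called (2.34% lower and 3.45% higher). Ier3 fell most, to the 9.2, 8.62 and 9.1 of E2 intact complexes, against 10.47, 10.56 and 10.6 without estrogen. Its change was -1.57 ± 0.232, 2.97-fold lower, with an adjusted p of 0.000302. Dusp1 changed by -1.43 ± 0.321, 2.69-fold lower (adjusted p = 0.0114), with no overlap between its 5.22, 4.89 and 5.31 with and its 6.95, 6.41 and 6.34 without estrogen. The Dusp1 call ended without intact replicate 1 (-1.24, adjusted p = 0.0728) or without E2 intact replicate 2 (-1.30, adjusted p = 0.0582). Egr1 changed by -1.38 ± 0.195, 2.61-fold lower, with an adjusted p of 0.000184, and the arrays were fully separate. Junb, at 5.29, 5.12 and 5.04 with and 6.05, 6.3 and 5.92 without estrogen, was lower on all 3 arrays, but its change of -0.94 ± 0.326 was not called (adjusted p = 0.11). It was called in 6 of the 30 alternative settings, among them the fit within array series 1 (adjusted p = 0.00403) and that without oocyte-free replicate 3 (adjusted p = 0.0157).

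In oocyte-free complexes, estrogen raised Fos and lowered Dusp1, where 9.64% of all tested genes were called (6.03% higher and 3.62% lower). Fos read 11.97, 11.32 and 11.99 with estrogen, against 10.01, 9.58 and 10.51 without. All E2 arrays were higher, and the change was 1.73 ± 0.237, 3.31-fold, with an adjusted p of 0.00017. Dusp1 read 6.54, 5.96 and 6.39 with and 8.18, 6.73 and 8.09 without estrogen, a change of -1.37 ± 0.321, 2.58-fold lower, with an adjusted p of 0.0118. These are the groups between which the labels conflict, and their arrays are spread unevenly over the array series. With that array moved by its source name, the changes were 1.14 for Fos (adjusted p = 0.559) and -1.21 for Dusp1 (adjusted p = 0.506), and no gene of the whole table was called. The Dusp1 call ended too without E2 oocyte-free replicate 2 (-1.20, adjusted p = 0.0511) and with array weights (-0.88, adjusted p = 0.0669), and it failed in a fit of the compared groups alone (adjusted p = 0.13). Without series 3 the Fos change was 1.13 (adjusted p = 0.0162). Egr1, near its highest level in both groups, differed by 0.17 (95% interval -0.24 to 0.58). Jun changed by 0.99 and was not called by its main probe set (adjusted p = 0.11), but its other probe set was, at 0.77 ± 0.2 (adjusted p = 0.026 with each probe set as its own row), as was the mean of both (0.88, adjusted p = 0.0414). Left-out arrays added 3 calls by the main probe sets: Jun without oocyte-free replicate 1 (1.41, adjusted p = 0.025), Junb without oocyte-free replicate 3 (-1.03, adjusted p = 0.0154) and Egr2 without E2 oocyte-free replicate 3 (-1.76, adjusted p = 0.012). Array weights added Junb (-0.92, adjusted p = 0.00821) and Egr2 (-1.48, adjusted p = 0.0312), and leaving out series 3 added Jun (2.56, adjusted p = 3.11e-05) and Ier2 (1.18, adjusted p = 0.0423).

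In cocultures, estrogen lowered Egr1 and Ier3, where 4.65% of all tested genes were called (2.34% lower and 2.32% higher). Egr1 read 9.86, 9.7 and 9.26 with and 11.57, 11.21 and 11.28 without estrogen, a change of -1.75 ± 0.195, 3.36-fold lower, with an adjusted p of 1.93e-05. The groups were far apart. Ier3 read 10.59, 9.93 and 9.56 with and 11.41, 11.0 and 10.76 without estrogen, a change of -1.03 ± 0.232, 2.04-fold lower, with an adjusted p of 0.0117. No array overlapped, but the Ier3 call ended without coculture replicate 1 (-0.85, adjusted p = 0.0686) and without E2 coculture replicate 2 (-0.98, adjusted p = 0.056) or 3 (-0.80, adjusted p = 0.092), as well as in a fit of the compared groups alone (adjusted p = 0.059). Junb, at -1.08 ± 0.326, was not called (adjusted p = 0.0723), but it was in 9 of the 30 alternative settings, as without oocyte-free replicate 1 (adjusted p = 0.0466) or 3 (adjusted p = 0.00673) or E2 oocyte-free replicate 2 (adjusted p = 0.0417). Jun was called without oocyte-free replicate 3 (0.75, adjusted p = 0.0427). Within array series 1, the estrogen effect in cocultures was called for 5 of the 10 genes, Junb, Jun and Egr2 beside Egr1 and Ier3, where 6.84% of all tested genes were called in the same fit.

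**Figure D3:**
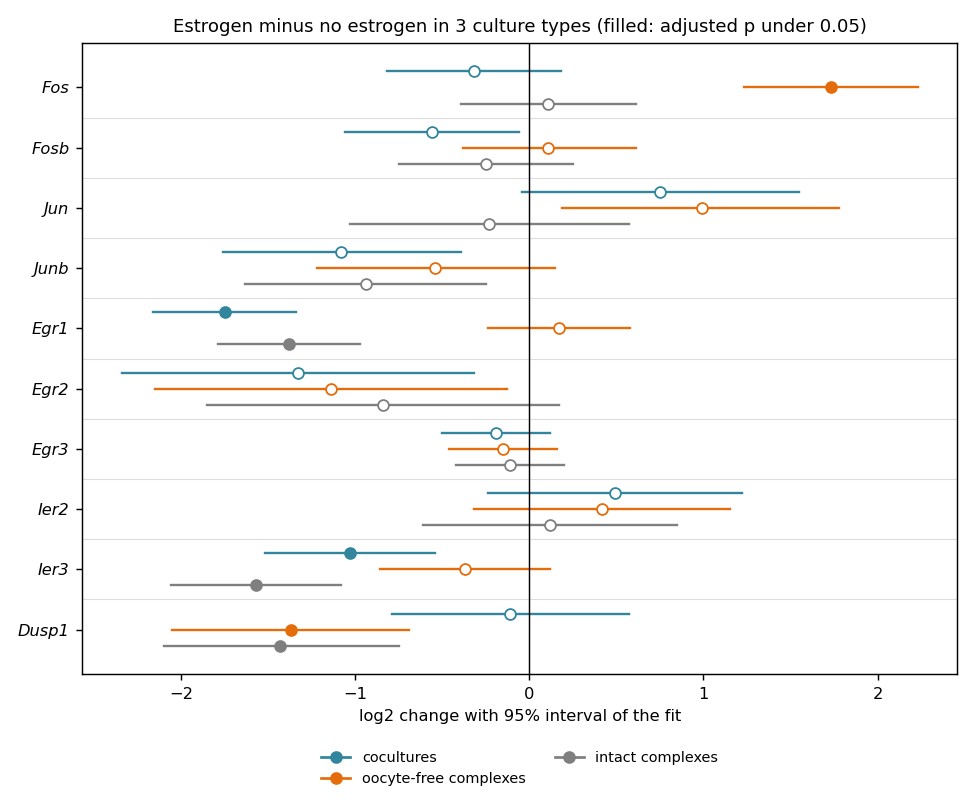
Log2 change with estrogen (x axis, with minus without) of each gene in cocultures, oocyte-free complexes and intact complexes; lines are 95% intervals of the limma fit and filled points passed an adjusted p of 0.05. Egr1 was lower with estrogen in cocultures and intact complexes, at -1.75 and -1.38, and differed by 0.17 in oocyte-free complexes, where Fos was higher by 1.73.

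The difference between these estrogen effects was itself tested as an interaction. For oocyte removal, the interaction was called for 2 of the 10 genes, both positive, where 3.21% of all tested genes were called (1.79% positive and 1.42% negative). Egr1 rose 1.55 ± 0.276 log2 units more on removal with estrogen than without (adjusted p = 0.00305), and it stayed called in all 29 alternative settings. Fos had an interaction of 1.62 ± 0.335 (adjusted p = 0.00986), which ended with the array of conflicting labels placed by its source name (1.03, adjusted p = 0.73) and without the arrays of series 3 (1.03, adjusted p = 0.0784). For the return of oocytes, the same 2 genes were called, both negative, where 2.78% of all tested genes were (1.89% negative and 0.89% positive). Egr1 gave -1.92 ± 0.276 (adjusted p = 0.000666), and Fos gave -2.05 ± 0.335 (adjusted p = 0.00198, or 0.53 with the array placed by its source name). Both interactions share the oocyte-free arrays. Those without estrogen lie in array series 2 and 3 alone, and the intact arrays in series 1. Series and oocyte therefore cannot be fully told apart in the interactions, whatever the setting. Ier3 missed the threshold for removal, at 1.20 ± 0.328 (adjusted p = 0.0548), and passed it in 10 of the 29 alternative settings. Dusp1 had a return interaction of 1.26 (adjusted p = 0.191), or 1.73 without oocyte-free replicate 2 (adjusted p = 0.0139). For Egr2, the interaction with removal was -0.30, with an interval from -1.73 to 1.13 that leaves a wide range.

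The order of group means differed from gene to gene. Egr1 ran from E2 oocyte-free (12.50) over oocyte-free (12.33), coculture (11.35), intact (10.79) and E2 coculture (9.61) to E2 intact (9.41). Only the first pair and the last pair of neighbours in that order overlapped. Junb likewise had both oocyte-free groups on top, though in the other order (7.89 without and 7.35 with estrogen), and E2 intact lowest (5.15). Its 2 oocyte-free groups overlapped each other and E2 oocyte-free overlapped the cocultures. Egr2 ranked the groups as Junb did, but all neighbours overlapped. Ier3 was instead highest in cocultures without estrogen (11.06) and lowest in E2 intact complexes (8.97), which stood apart from the next group. Dusp1 was highest in oocyte-free complexes without estrogen (7.67) and lowest in E2 intact complexes (5.14), again the only group apart from its neighbour. For Fos, oocyte-free complexes without estrogen (10.03) stood alone below the other 5 groups, whose neighbours all overlapped.

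On no array did all 10 genes deviate from their group means to the same side. Oocyte-free replicate 3, which had the narrowest interquartile range of the 18 arrays (2.54), lay below its group mean by 1.31 for Jun, 0.99 for Junb and 0.96 for Ier2, but above it by 0.48 for Fos and 0.42 for Dusp1. In E2 oocyte-free complexes, replicate 3 deviated by 1.24 for Egr2 and 0.57 for Junb, and replicate 2 by -1.03 and -0.67. Coculture replicate 1 lay above its group mean for 8 of the 10 genes and coculture replicate 2 for 1 of them. Across the 18 arrays, Fosb and Junb deviated to the same side on 15 and Egr1 and Ier2 on 3. On all 3 arrays of series 3, Junb lay above its group mean by 0.35 to 0.63 and Ier2 by 0.38 to 0.57. Egr1 lay below its own there, by at most 0.13, and the other genes lay on both sides. On both arrays of series 2, coculture replicate 2 and oocyte-free replicate 3, Fosb, Jun, Junb, Egr2, Ier2 and Ier3 lay below and Egr3 above. These values are a description, since deviations within a group of 3 sum to 0, and the part of the series was not tested.

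**Figure D4:**
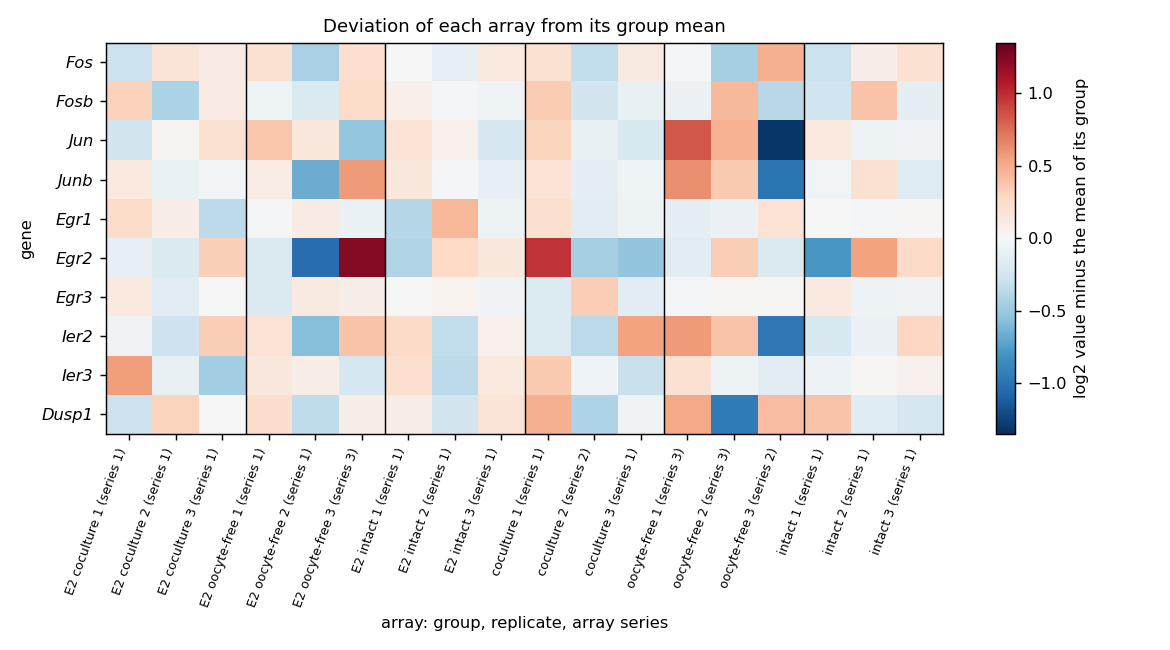
Deviation of each array (columns, by group, replicate and array series) from the mean of its group for each of the 10 genes (rows), in log2 units, red above and blue below. The darkest cells are Jun in oocyte-free replicate 3 (-1.31) and Egr2 in E2 oocyte-free replicate 3 (1.24).

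Other genes of the same pathways were followed as whole lists. These lists, too, were chosen with earlier results of these data known, so their counts are a description. Of 36 further immediate early genes, 35 were tested. With estrogen, 20 rose and 0 fell on removal of the oocyte, with a median of 0.80, and without estrogen 15 rose and 5 fell, with a median of 0.28. Of all tested genes, 12.9% rose and 17.3% fell with estrogen, and 18% rose and 20.7% fell without. The largest called changes with estrogen were in Ccn1 (2.94 ± 0.482) and Ccn2 (2.89 ± 0.271), matricellular protein genes, and Klf6 (2.67 ± 0.235), a zinc finger factor. Without estrogen they were in Ier5 (2.14 ± 0.379), Sgk1 (1.97 ± 0.401), a kinase gene, and Plk2 (1.81 ± 0.196), a polo-like kinase gene. When oocytes were returned, 18 of the 35 fell and 1 rose with estrogen (median -0.61), and 10 fell and 4 rose without (median -0.29). Here 10.4% of all tested genes fell and 14.2% rose with estrogen, and 13.4% fell and 19.8% rose without. Under estrogen in intact complexes, 9 fell and 2 rose, led by Gadd45a (-1.88), Sgk1 (1.87) and Gadd45b (-1.68). In oocyte-free complexes 7 rose and 3 fell under estrogen, and in cocultures 2 rose and 5 fell. The shares of all tested genes under estrogen were 3.45% higher and 2.34% lower in intact complexes. They were 6.03% higher and 3.62% lower in oocyte-free complexes, and 2.32% higher and 2.34% lower in cocultures.

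The negative regulators of the pathway moved in part with the 10 genes. Of 15 tested MAP kinase phosphatase, Sprouty and Spred genes, 6 rose and 2 fell on removal with estrogen (median 0.45), and 6 rose and 1 fell without (median 0.44). The shares of all tested genes were 12.9% higher and 17.3% lower with estrogen, and 18% higher and 20.7% lower without. Dusp4, whose product acts on nuclear MAP kinases, rose by 2.78 ± 0.227 with and 4.32 ± 0.227 without estrogen. Dusp6, an ERK phosphatase gene, rose by 2.31 ± 0.258 and 1.89 ± 0.258, while Dusp5, also an ERK phosphatase gene, fell by 0.96 and 0.80. Both corepressors of EGR proteins, Nab1 and Nab2, rose on removal: Nab2 by 2.29 ± 0.167 with and 1.63 ± 0.167 without estrogen, and Nab1 by 1.48 ± 0.205 and 1.43 ± 0.205. Both fell when oocytes were returned, Nab2 by 1.94 with and 1.51 without estrogen, and Nab1 by 1.33 and 1.18.

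Among 11 other AP-1 genes tested, 2 rose and 0 fell on removal with estrogen, and 3 rose and 1 fell without. Of all tested genes, 30.2% were called with estrogen (12.9% higher and 17.3% lower) and 38.7% without (18% higher and 20.7% lower). The 11 genes were thus called no more often than all tested genes. Their median change was 0.12 with and -0.16 without estrogen. Fosl2, a FOS paralog, rose by 1.23 ± 0.196 with and 1.75 ± 0.196 without estrogen, and Maf, a large MAF factor, by 3.61 ± 0.314 and 2.38 ± 0.314. Of 21 tested genes of the MAP kinase cascade and the factors that act on immediate early promoters, 2 rose and 1 fell with estrogen, and 7 rose and 4 fell without. Called genes were thus rarer in this list than among all tested genes with estrogen, and more frequent without. The median change of the list was 0.23 with and 0.11 without estrogen. Map2k1, which encodes the ERK kinase MEK1, fell by 1.88 ± 0.239 with and 1.29 ± 0.239 without estrogen. These lists are described by their counts and medians alone, beside the shares of all genes given above.

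**Figure D5:**
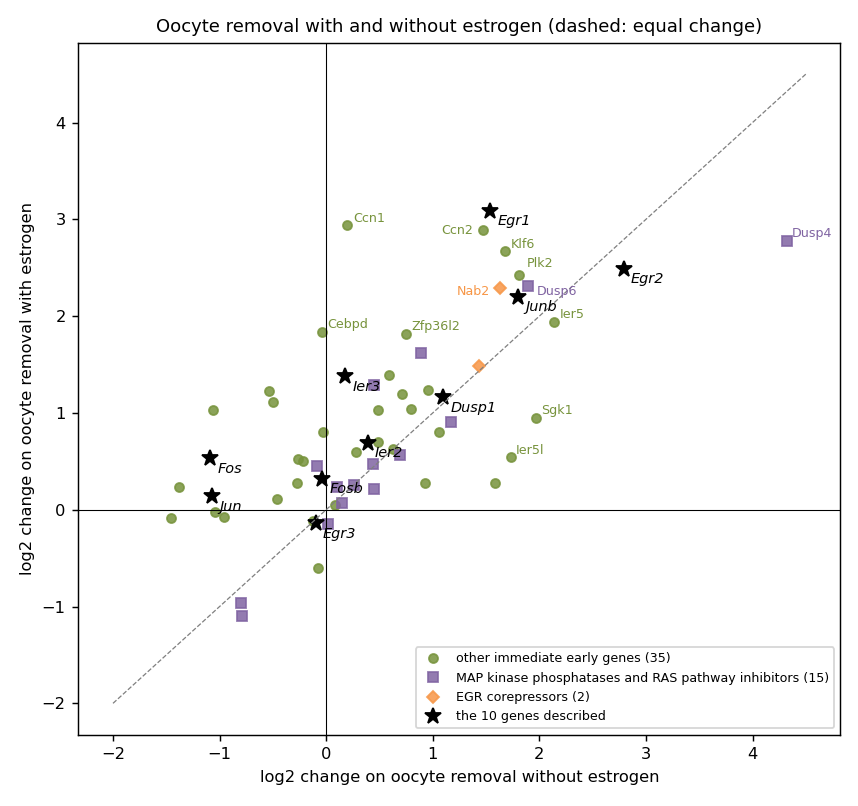
Log2 change on removal of the oocyte with estrogen (y axis) against that without (x axis) for the 10 genes (stars), 35 other immediate early genes, 15 MAP kinase phosphatase and RAS pathway inhibitor genes and both EGR corepressors; the dashed line marks equal change. Egr1 lies at 3.09 and 1.54, above the line, and Egr2 near it, at 2.49 and 2.79.

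Markers of handling and of other cells were read beside these values. Of 14 heat shock genes tested, 1 rose and 5 fell on removal with estrogen, and 0 rose and 6 fell without, where 17.3% and 20.7% of all tested genes fell. Among them were the chaperone genes Hspa1b, which fell by 1.95 with and 1.84 without estrogen, and Dnajb4, which rose by 0.99 with estrogen and changed by 0.01 without. Their part in the results was not tested. The summed heat shock level (log2 of the sum over the list) was 14.69 to 14.86 in E2 oocyte-free against 15.03 to 15.07 in E2 intact complexes, and 14.58 to 14.82 against 15.16 to 15.20 without estrogen. The 9 granulosa markers summed to 14.12 to 14.44 in E2 oocyte-free against 15.03 to 15.23 in E2 intact complexes, and to 13.56 to 13.92 against 14.48 to 14.64 without estrogen, and their part in the results was not tested. Theca and stroma markers, of which Cyp17a1 and Col1a1 (2 of 8) were below the filter, summed to 11.57 to 12.29 in E2 oocyte-free against 9.74 to 9.88 in E2 intact complexes, and to 10.87 to 11.40 against 12.14 to 12.36 without estrogen. In cocultures they summed to 10.28 to 10.83 with and 12.25 to 12.78 without estrogen. Of the 6 tested, 3 rose and 0 fell on removal with estrogen, and 1 rose and 3 fell without. Dcn, which encodes the matrix proteoglycan decorin, rose by 3.39 with and 4.48 without estrogen and fell by 3.46 and 4.32 when oocytes were returned. Its direction was that of Egr1 in both conditions, but Dcn changed more without estrogen and Egr1 more with it. Acta2, which encodes smooth muscle actin, changed by 2.98 with and -1.91 without estrogen on removal. The part of these markers in the results was not tested. Endothelial and blood markers, 7 of 8 below the filter, summed to 7.65 to 8.14 on all arrays. Of the oocyte markers, 7 of 11 were below the filter, and their sum was 8.57 to 8.68 in E2 oocyte-free against 9.58 to 9.75 in E2 intact complexes, and 8.63 to 9.16 against 9.39 to 9.73 without estrogen. In cocultures the sum was 9.30 to 9.86 with and 9.32 to 9.88 without estrogen. Most of the difference on removal lay in Bcl2l10, which averaged 4.34 in E2 oocyte-free against 8.71 in E2 intact complexes, and 4.40 against 8.31 without estrogen. It was the only 1 of the 4 tested oocyte markers called on removal, and the median change of the 4 was -0.02 with and 0.03 without estrogen. The ovulatory gene Ptgs2, which cumulus cells induce during expansion, was below the filter, as were 7 of 9 expansion genes.

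Genes whose pattern over the 18 arrays was most like that of a member were found for the 7 members whose group means span at least 1 log2 unit, by the root mean square difference of mean-centred values. The nearest to Egr1 was Ahnak, at 0.365, followed by Slc40a1, at 0.417. For Egr2 they were F11r and Anxa1, at 0.474 and 0.483, and for Junb they were Mmp11 and F11r, at 0.27 and 0.28. Fos lay nearest to Cpne8 (0.318) and Hipk3 (0.325), Jun to Nmnat1 (0.237) and Prcc (0.271), Ier3 to Ppm1e (0.371) and Mllt11 (0.388), and Dusp1 to Erf (0.495) and Hexim1 (0.509). F11r is named for both Egr2 and Junb, and no other gene is named for more than 1 member.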

How the data were processed

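Transcripts of cumulus cells were hybridized to 18 Affymetrix arrays of the Mouse 430 2.0 type, with repeated amplification of the RNA per the labels' protocols. The authors deposited log2 values, rounded to 2 decimals. RMA was run in Expression Console 1.1 from Affymetrix, according to the submitters' processing notes. RMA forces all arrays to a similar distribution and compresses low values, so that dim genes show too small a fold. Precision is limited by the number of arrays.

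From these values, probe sets with 1 symbol in the platform annotation were kept (34945), with symbols updated through RefSeq GRCm38.p6. Each gene was represented by its probe set of highest mean, and 12246 of 18193 genes lay above the array median on at least 3 of 18 arrays. Tests used R 4.3.3 and limma 3.58.1 (lmFit, eBayes, two-sided), with 6 group means in 1 fit and Benjamini-Hochberg adjustment over all tested genes and calls under 0.05. The SE comes from the spread shared by all groups. The 11 comparisons were removal, return and coculture against intact, each with and without estrogen, estrogen in each culture type, and 2 interactions.

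The members and gene lists were chosen with earlier results of these data known. The 10 members are named in every comparison. From each list at most the 3 called genes of largest change per comparison are named, and Ptgs2, Inha, Foxl2, Bcl2l10, Cyp17a1, Col1a1 and, under removal, Dusp5 and (without estrogen) Dnajb4 were chosen after their values were seen. For likeness, the 2 nearest tested genes are named. Alternatives covered probe set choice, the filter, array series, weights, normalization, the replicate block, the variance prior, the conflicting label and each array left out. The fit was tested on simulated data. Sequences come from RefSeq GRCm38.p6.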

Additional observations from a re-analysis of the deposited data

Results flagged for a closer look

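Two-way differences between groups in the effect of the oocyte under estrogen were the only results singled out, by a test of the interaction itself. Groups of 3 arrays are too small for a test of single arrays that stand apart. For the removal of the oocyte, the difference between the change with and without estrogen was 1.62 for Fos and 1.55 for Egr1. For the return of oocytes, it was -2.05 for Fos and -1.92 for Egr1. All 4 values rest on the same oocyte-free arrays, and those without estrogen share no array series with the intact ones. The Egr1 changes behind them were 3.09 with and 1.54 without estrogen on removal, and -2.89 and -0.97 on return. Those of Fos were 0.53 with and -1.09 without estrogen on removal, and -0.48 and 1.57 on return.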

How the results depend on the processing

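Over 3250 recomputed gene values, 3163 kept their side of the threshold, 33 lost a call, 54 gained one and 0 reversed, where a value not called has no direction. Calls of Egr1 held in every setting, as did those of Egr2 and Junb on removal and on return with estrogen. Placing the array of conflicting labels by its source name gave 3 called members for removal without estrogen (6 otherwise), 0 for estrogen in oocyte-free complexes (2) and 1 for each interaction (2), where 35.3%, 0%, 0.735% and 0.71% of all genes were called. It also left 0 of all genes called for estrogen in oocyte-free complexes, against 1181. Using only the compared groups gave 1 for estrogen in oocyte-free complexes, where 1.71% of all genes were called. For estrogen in cocultures (2), array weights gave 4, where 15.8% of all genes were called in that fit, and array series 1 alone gave 5, where 6.84% were (4.65% otherwise). Leaving out array series 3, an alternative chosen after seeing the data, gave 4 for estrogen in oocyte-free complexes (23.9% of all genes), 4 for estrogen in cocultures (7.19%), 4 for the interaction with removal (12.6%) and 5 for that with return (9.09%), against 9.64%, 4.65%, 3.21% and 2.78% of all genes otherwise. It leaves 1 oocyte-free array, assumed to vary like the other groups. The cause of these shifts was not tested. Leaving out each array in turn gave 5 to 6 called members for removal without estrogen, 5 to 6 for removal with estrogen, 5 to 6 for return without and 3 to 4 for return with estrogen, 0 for coculture against intact in both conditions, 2 to 4 for estrogen in intact complexes, and 2 to 3 for each interaction. For estrogen in oocyte-free complexes it gave 1 (without E2 oocyte-free replicate 2) to 3. For estrogen in cocultures it gave 1 (without coculture replicate 1 or E2 coculture replicate 2 or 3) to 4 (without oocyte-free replicate 3). The shares of all tested genes in these refits are not given here. The counts with an array left out therefore cannot be read as a result about the 10 genes.

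The replicate block used the running numbers of the titles. Same-numbered arrays of different groups had correlations of their deviations from -0.33 to 0.42 with a median of -0.00. For arrays of other numbers, these ran from -0.42 to 0.33, also with a median of -0.00. Deviations within a group of 3 sum to 0, so these values cannot settle whether the numbers pair the samples. With the replicate block, 3 members were called for the interaction with removal, Ier3 joining at 1.20 (adjusted p = 0.0234), and every other count stayed at its value. Over all genes, the array series as a term gave 3122 calls for removal without estrogen against 4743. For estrogen in intact complexes, calls over all genes ran from 446 to 2214 over the settings that keep all arrays, against 708. They ran from 0 to 2679 for estrogen in oocyte-free complexes, from 399 to 1930 for estrogen in cocultures (570 otherwise), from 90 to 1321 for the interaction with removal (393) and from 87 to 1557 for that with return (341). A fit within array series 1 could not be made for comparisons with oocyte-free complexes without estrogen, which have no array in it.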
